A study of Mus musculus with 2 samples.

Results

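The Hsd3b genes of the mouse encode 3beta-hydroxysteroid dehydrogenases, and all 7 family members named on the array (Hsd3b1 to Hsd3b7) are described here in liver. Members were chosen by the gene name in the array's design, which gave 9 probes of the 39429 gene probes. Hsd3b2 and Hsd3b4 had 2 probes each and the other 5 members had 1 each. The family was picked for description because earlier results of these data had shown a large difference in Hsd3b5, so its differences are given as a description and not as a test. Of the 7 members, 5 were measured, that is well above background, on both arrays, and Hsd3b1 and Hsd3b4 on neither.

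The data are 2 one-colour Agilent mouse arrays of liver RNA, 1 from a wild type and 1 from a Drp1 knockout sample. Drp1, encoded by Dnm1l, is the dynamin-related GTPase that divides mitochondria. Both samples came from male C57BL/6J mice that were put on a lard-based diet with 24% fat (45% of its energy) at 4 weeks of age and stayed on it for 24 weeks. The series title places the disruption in the liver, but the labels name neither the Cre driver nor the deleted part of the gene. They also do not say whether a sample pooled several animals, or whether each was taken fasted or refed, since the study collected both kinds. If the feeding states of the samples differed, they cannot be told apart from the genotype.

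Levels are signals divided by the 75th percentile of the same array, and a difference is the knockout minus the wild type value on the log2 scale. The 2 groups hold 1 array each, so no difference has a replicate check and none could be tested. Repeated spots of 1 probe had an SD of 0.11 in the wild type and 0.083 in the knockout, so spot error alone gives a difference an SD of 0.14. The spread between animals is not known. Both arrays measured 15385 genes, with a median difference of -0.11. Dnm1l, whose single probe may lie outside the deleted part and so checks nothing, read 2.03 in the wild type and 1.75 in the knockout. Fgf21, the liver hormone in the series title, read 3.37 and 20.2.

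Classical Hsd3b enzymes turn delta-5 steroids such as pregnenolone and dehydroepiandrosterone into delta-4 ketosteroids such as progesterone and androstenedione, a step that every active steroid hormone passes through. Other mouse members act mainly in the opposite sense, as ketosteroid reductases that inactivate hormones. Hsd3b1 is the main form of the adrenal gland and gonads. Hsd3b2 and Hsd3b3 are found in liver and kidney, Hsd3b4 in kidney, and Hsd3b6 in the outer adrenal cortex, placenta and skin. Hsd3b5 is a reductase of adult male liver whose expression depends on pulsatile growth hormone. Hsd3b7 stands apart, since it works on oxysterols in bile acid synthesis and not on steroid hormones.

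The family genes other than Hsd3b7 form a cluster of near copies on chromosome 3, and similar probes could pick up each other's transcripts. The stretches below are 30 bases of 4 of the 60-base probes, shown because they hold every run of at least 15 bases that probes of different members share exactly, and capitals mark those shared runs. The letters are those of the array's design files, 5′ to 3′ on the transcript strand.
Hsd3b5: ttgATACCTTTATGAAGCTCAAAGAAcaat
Hsd3b4: cccATACCTTTATGAAGCTCAAAGAAaaga
Hsd3b3: gCTTTATGAAGCTCAATGGAAGAAACAATa
Hsd3b2: gccCAATGGAAGAAACAATtatttgtcaat
All 4 lie on the minus strand. In mm9, the build of the array's design, the full 60-base probes map to chr3:98422576-98422635 for Hsd3b5 and chr3:98303020-98303079 for Hsd3b4. Those of Hsd3b3 and Hsd3b2 map to chr3:98545455-98545514 and chr3:98515054-98515113. Exon and UTR annotation of that build was not used here.

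The closest pair was the Hsd3b5 probe and the later of the 2 Hsd3b4 probes, which share 23 bases in a row and match at 42 of the 53 bases where they overlap without gaps. No other probe of the whole array shared 20 or more bases in a row with the Hsd3b5 probe. On the wild type array the Hsd3b5 spot had a raw mean signal of 11003 over a local background of 61.0, whereas the Hsd3b4 spot had 83.1 and was not well above background. The strong Hsd3b5 signal was thus not seen on its nearest relative. The same held for Hsd3b3 and Hsd3b1, whose probes match at 39 of 57 bases. Hsd3b3 gave a raw mean of 22699 on the wild type array and Hsd3b1 gave 84.6 over 61.5. Whether other transcripts added signal to the probes of Hsd3b5, Hsd3b2, Hsd3b3, Hsd3b6 or Hsd3b7 was not tested.

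Hsd3b5, the male liver reductase, differed far more than any other member. Its level was 25.4 times the array's 75th percentile in the wild type and 0.870 in the knockout, a log2 difference of -4.87, or 29.2-fold lower in the knockout. The knockout spot was still well above background, at a raw mean of 671 over 68.5, so the value is a measured difference and not a bound. Of the 15385 measured genes, 2 had a more negative difference. That rank leaves out genes well above background on 1 array only. Among those, the skeletal muscle markers Tnnc2 and Tcap were at least 88.1-fold and 36.5-fold lower in the knockout. Measured genes were also ranked by mean log2 level over both arrays and cut into brightness groups of nearly equal size. The group of Hsd3b5 follows the mean of its 2 unlike levels and so matches neither array. Among its 1538 genes the central 95% of differences lay between -1.05 and 0.86, with a median of -0.14. In tissue RNA such a value cannot tell fewer expressing cells from less RNA per cell. Hsd3b5 rests on 1 probe in 1 spot per array, and no second probe checks it.

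**Figure D1:**
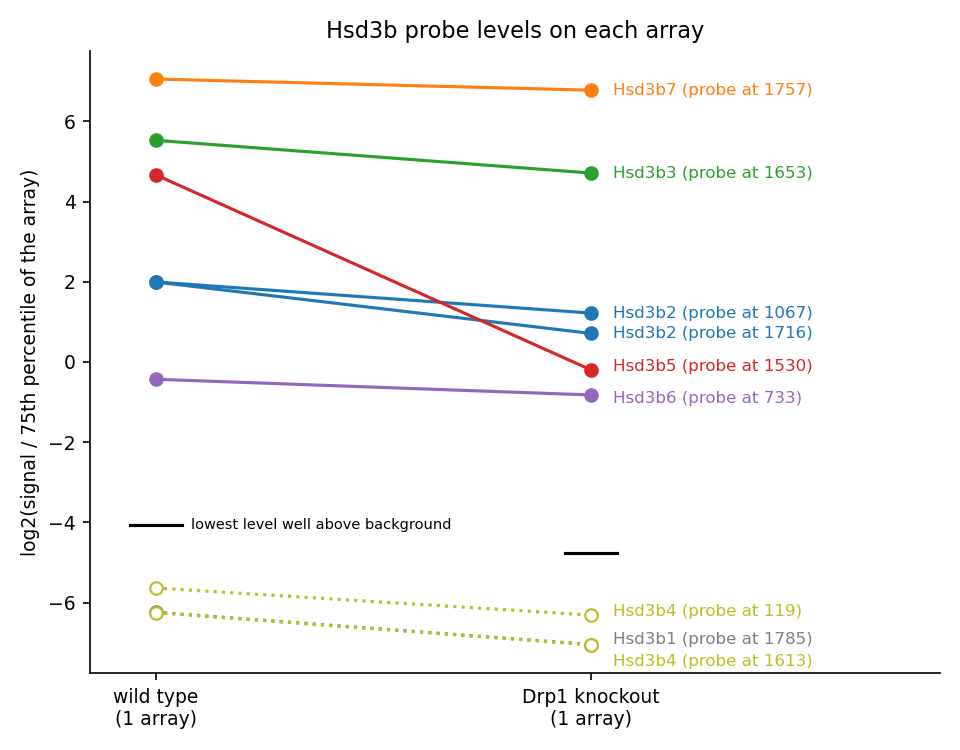
Level of each of the 9 Hsd3b probes on the wild type and the Drp1 knockout array, as log2 of the signal over the array's 75th percentile (1 array per group, no error bars); open points with dotted lines were not well above background, and short black bars mark the lowest level that was. The Hsd3b5 line drops from 4.67 to -0.20, while the 5 other measured probes fall within -1.28 and -0.28 of level and 3 probes lie below the bars.

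Hsd3b2 and Hsd3b3, the members of liver and kidney, were lower in the knockout at this scaling, by far less than Hsd3b5. With spike-in scaling the differences were -0.24 for Hsd3b2 and -0.03 for Hsd3b3. The 2 probes of Hsd3b2 agreed in the wild type, at 3.99 and 3.98, but read 2.33 and 1.64 in the knockout. Their differences were -0.78 for the probe at position 1067 of the transcript (chr3:98515703-98515762) and -1.28 for the one at position 1716, which shares 16 bases in a row with the Hsd3b3 probe. The mean of both, -1.03 or 2.04-fold lower, just passed 2-fold. It passed under 2 of the 8 alternative settings, no filter on dim probes and a stricter one. Those left it unchanged because both probes were kept, so they add no check. Under 5 others it came to between -0.92 and -0.95, so this call turns on the setting. With the brighter probe alone it was -0.78.

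Hsd3b3 read 46.1 in the wild type and 26.2 in the knockout, a difference of -0.82 or 1.76-fold. Genes in the brightness group of Hsd3b3 had a median difference of -0.30, and the central 95% lay between -1.06 and 0.41. Under quantile and loess normalization, which take account of brightness, and in the deposited value table, Hsd3b3 came to between -0.53 and -0.52. Hsd3b3 lay within the range of its brightness group, as did Hsd3b2. In the group of Hsd3b2 the central 95% of genes lay between -1.03 and 0.88, and Hsd3b2 stood at the lower edge.

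Hsd3b6, the adrenal, placental and skin form, and Hsd3b7, the bile acid enzyme, differed little. Hsd3b6 (chr3:98610436-98610495 in mm9, minus strand) read 0.742 in the wild type and 0.565 in the knockout, a difference of -0.39 or 1.31-fold. Before scaling its signal was 342 in the wild type and 408 in the knockout, since the 75th percentile itself was 461 for wild type and 722 for knockout. The direction for Hsd3b6 is thus set by the scaling, and with the arrays scaled to spike-in spots it was 0.40. Hsd3b7 (chr7:134947251-134947310 in mm9, plus strand) read 133 and 110, a difference of -0.28 or 1.21-fold. It was -0.0026 under quantile normalization, 0.10 under loess and 0.51 with spike-in scaling, so it has no stable direction. The brightness group of Hsd3b7, the same as that of Hsd3b3, had a median of -0.30.

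Hsd3b1, the adrenal and gonadal form, and Hsd3b4, the kidney form, were not well above background on either array, and no fold is given for them. The Hsd3b1 spot (chr3:98656127-98656186) had raw means of 84.6 in the wild type and 84.5 in the knockout, over local backgrounds of 61.5 and 66.5. Both Hsd3b4 probes were as dim, with raw means between 75.4 and 87.5 on the 2 arrays. One of them maps to chr3:98313904-98314276, a span longer than the probe. The dim signals set no limit on transcript number, since a probe's brightness per transcript is not known.

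Counted together, 2 of the 5 measured members were lower by 2-fold or more and 0 were higher by as much. Over all measured genes, 3.64% were at least 2-fold lower and 2.91% at least 2-fold higher. At 1.5-fold, 3 members were lower and 0 higher, against 13.4% and 8.42% of all measured genes. All 5 differences were negative, with a median of -0.82 against -0.11 over all measured genes. Because the family was chosen for Hsd3b5, nothing is read from its count. Apart from Hsd3b5, each measured member lay within the range of the central 95% of genes of its own brightness group. Of all measured genes that differed by at least 2-fold, 447 were higher and 560 lower, so 44.4% were higher. That share was 53.5% under loess, 59.6% under median centring and 97.2% with spike-in scaling.

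**Figure D2:**
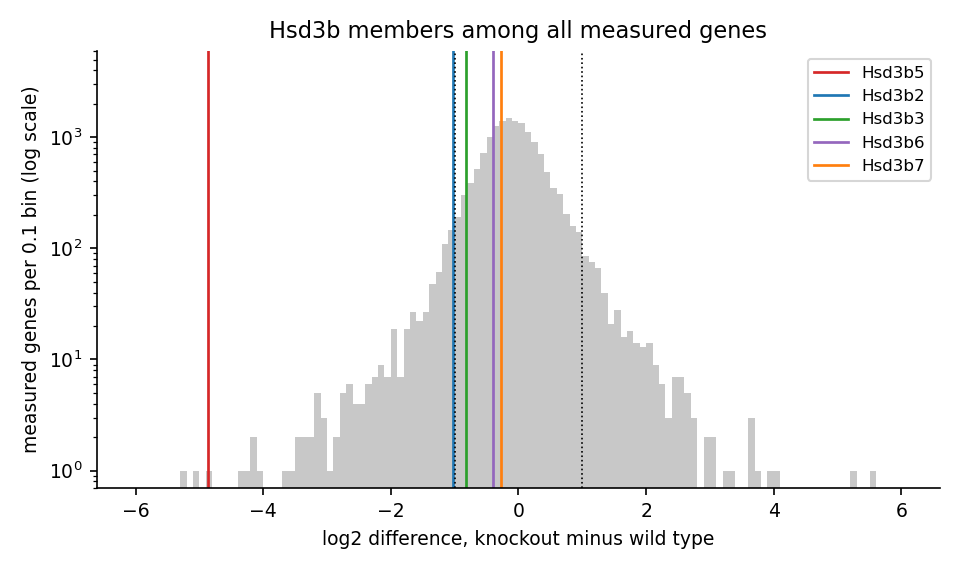
Distribution of the log2 difference (knockout minus wild type) of the 15385 measured genes, as genes per bin on a log axis, with a coloured line at each measured Hsd3b member and dotted lines at 2-fold. Hsd3b5 at -4.87 lies far to the left with 2 genes beyond it, and the other 4 members lie between -1.03 and -0.28 within the main body.

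No other measured member of the cluster had a difference near that of Hsd3b5. The 8 probes of the 6 chromosome 3 members span 353 kb (chr3:98303020-98656186 in mm9). Hsd3b2 lies 92.5 kb from Hsd3b5 by its nearer probe, Hsd3b3 122.9 kb and Hsd3b6 188 kb, and their differences were -1.03, -0.82 and -0.39. The order of Hsd3b2 and Hsd3b3 rests on the mean of the 2 Hsd3b2 probes, since the probe at -0.78 differed less than Hsd3b3. On the other side, the 2 Hsd3b4 probes, at -108.5 and -119.6 kb, gave no measured value. With 4 measured members on the chromosome, all others on 1 side of Hsd3b5, no relation to distance could be tested.

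Near the cluster, within 500 kb of it, Wars2 and Notch2 showed no difference of the size seen in Hsd3b5. Wars2, the mitochondrial tryptophanyl-tRNA synthetase, differed by -0.61, and the receptor Notch2 by 0.07. Wars2 was dim, at 0.165 in the wild type and 0.108 in the knockout, by the only probe measured on both arrays. Its other probe was well above background on the knockout array only. Phgdh, the first enzyme of serine synthesis, was well above background on the knockout array only and was named after its value was seen. Its 2 probes gave bounds of at least 3.48-fold and at least 2.41-fold higher there. Each bound uses the lowest wild type level that passed the background mark or the probe's own level, whichever is higher.

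**Figure D3:**
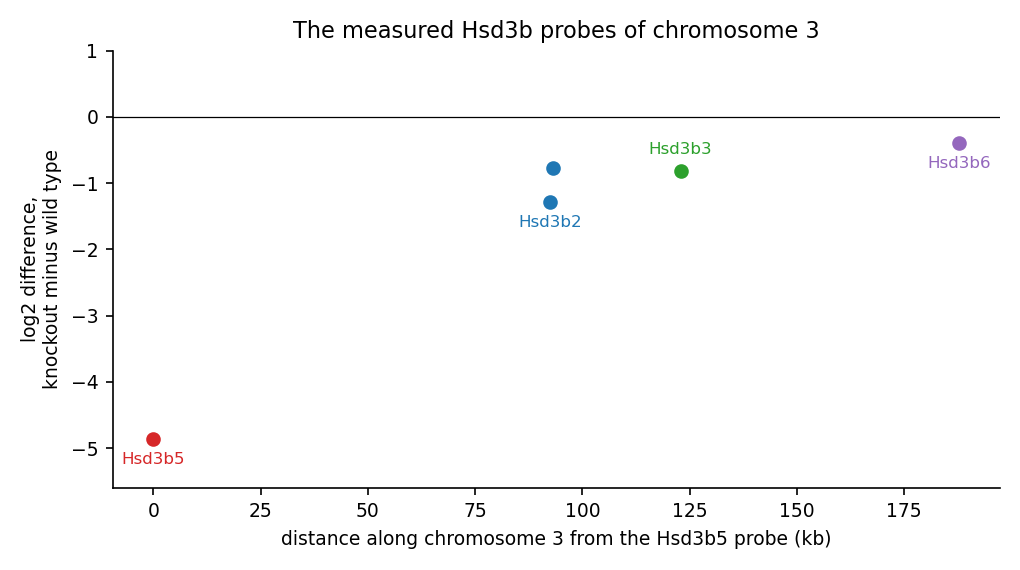
Log2 difference (knockout minus wild type) of each measured Hsd3b probe of chromosome 3, 1 point per probe, by distance in kb from the Hsd3b5 probe (1 array per group, no error bars). Hsd3b5 stands at -4.87, and the other points lie between -1.28 and -0.39.

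The promoters of Hsd3b5 and Hsd3b3 are near relatives, although the 2 genes differed by -4.87 and -0.82. They are shown because this is the closest promoter pair of the family with values on both sides. The sequences are the 250 bases before the annotated start from RefSeq (build GRCm38.p6, chromosome 3, minus strand), at chr3:98645535-98645784 for Hsd3b5 and chr3:98763129-98763378 for Hsd3b3, and capitals mark runs of at least 10 bases that are identical in their alignment.
Hsd3b5: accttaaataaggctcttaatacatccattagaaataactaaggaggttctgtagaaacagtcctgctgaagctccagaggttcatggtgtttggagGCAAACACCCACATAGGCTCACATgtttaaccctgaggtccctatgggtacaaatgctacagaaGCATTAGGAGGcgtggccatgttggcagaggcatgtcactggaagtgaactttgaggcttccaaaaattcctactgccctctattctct
Hsd3b3: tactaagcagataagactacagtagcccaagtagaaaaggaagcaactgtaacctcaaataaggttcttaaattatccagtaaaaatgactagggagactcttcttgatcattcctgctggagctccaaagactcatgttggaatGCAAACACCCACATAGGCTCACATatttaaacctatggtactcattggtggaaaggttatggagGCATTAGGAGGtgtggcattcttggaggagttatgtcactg
Over the 202 aligned columns, 151 bases were identical (74.8%). RefSeq lists a further window for Hsd3b3, which gave 75.4% with Hsd3b5. The other 32 pairs of windows of different family genes had 44.6% to 51.7% identity.

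All 7 members matched a RefSeq promoter window, 9 windows in all. The letters TTCNNNGAA, the core of sites for the growth hormone-activated factor STAT5, were found on either strand in 2 windows, of Hsd3b1 and Hsd3b7, and in 7.02% of all 32851 windows of this length. The letters ATTGAT, a core of sites for the liver factor HNF6, were found in both windows of Hsd3b4 and in 6.72% of all windows. Those 2 windows overlap by 155 bases and hold the same single match. The windows of Hsd3b5, Hsd3b2, Hsd3b3 and Hsd3b6 held neither, which says only that these letters are not in these 250 bases.

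Steroid hormone genes other than the Hsd3b family were more often lower than higher at this scaling, which did not hold under every other. Of 32 listed genes 23 were measured on both arrays, and at 1.5-fold 10 were lower, 2 higher and 11 between, with a median of -0.31, beside 13.4% lower and 8.42% higher over all measured genes. Under quantile normalization 4 were lower and 3 higher, with a median of -0.12, beside 12.0% and 8.50% of all genes. With spike-in scaling 1 was lower and 11 higher, beside 1.34% and 59.1%. Cyp21a1, the steroid 21-hydroxylase, differed by -1.46, and Cyp17a1, which makes androgen precursors, by -1.19. Hsd11b1, which regenerates active glucocorticoid in liver, read 79.8 and 41.6, a difference of -0.94. Sult1e1, the estrogen sulfotransferase, was higher but dim, at 0.106 in the wild type and 0.200 in the knockout, a difference of 0.91. The aldo-keto reductases of the Akr1c group, which also reduce steroids, are close relatives of each other, and single members may share signal. The first and last enzymes of adrenal hormone synthesis, Cyp11a1 and Cyp11b1, were not well above background on either array.

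Bile acid synthesis genes, the pathway of Hsd3b7, differed little as a group. All 16 listed were measured, with 3 at least 1.5-fold lower, 0 higher (13.4% and 8.42% over all measured genes) and a median of -0.16. The median was 0.06 under quantile and loess normalization and 0.63 with spike-in scaling, so its sign depends on the setting. Cyp7b1, the oxysterol hydroxylase that feeds Hsd3b7 in the alternative pathway, read 34.2 in the wild type and 13.5 in the knockout, a difference of -1.34. Cyp46a1 differed by -0.76, the bile acyl-CoA synthetase Slc27a5 by -0.67 and the cholesterol hydroxylase Ch25h by -0.54. Ch25h was dim, at 0.076 in the wild type and 0.052 in the knockout, and Cyp46a1 read 0.366 and 0.216. Slc27a5 read 172 and 109. Cyp7a1, the rate-limiting enzyme of the classical pathway, differed by -0.17.

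Male-biased liver genes, the class of Hsd3b5, were more often lower than higher, each by less than Hsd3b5. Hsd3b5 was left out of the list, and 17 of its 21 genes were measured. At 1.5-fold, 9 were lower and 2 higher, beside 13.4% and 8.42% of all measured genes. The median was -0.62 and the lowest value -1.69 for Keg1. Nudt7, a peroxisomal CoA hydrolase, differed by -1.51. The near-identical fatty acid hydroxylases Cyp4a12a and Cyp4a12b were higher, at 1.38 and 1.39. Cyp7b1 belongs to this list and to the bile acid list. The list median was -0.22 under quantile normalization, with 8 lower and 2 higher, beside 12.0% and 8.50% of all genes. It was 0.17 with spike-in scaling, with 2 lower and 6 higher, beside 1.34% and 59.1%. The list was chosen with earlier results of these arrays known and is no independent support.

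**Figure D4:**
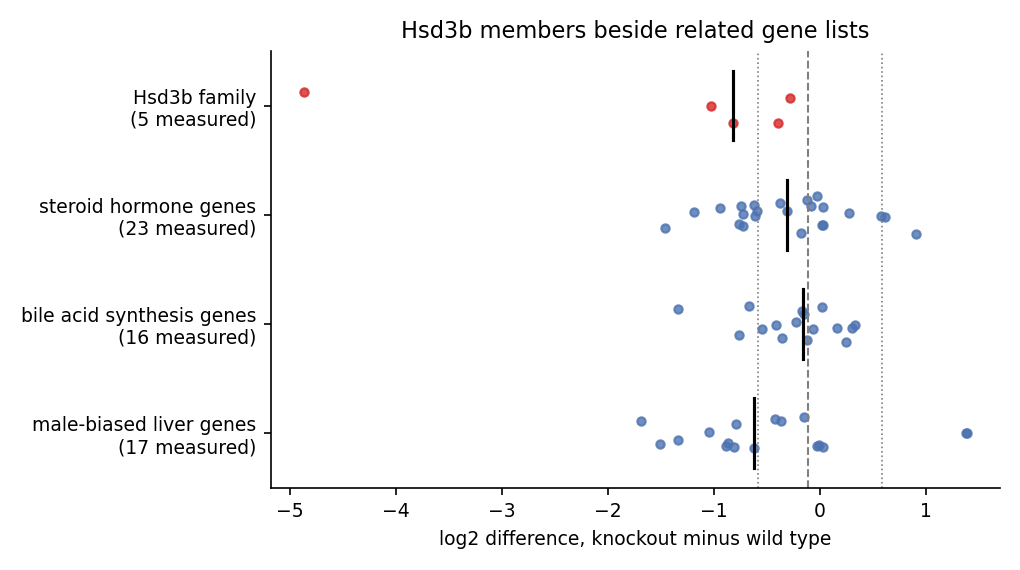
Log2 difference (knockout minus wild type) of the 5 measured Hsd3b members and of 3 related gene lists, 1 point per gene with a bar at each list's median; dotted lines mark 1.5-fold and the dashed line the median of all measured genes, -0.11. The list medians are -0.82 for the Hsd3b family, -0.31 for steroid hormone genes, -0.16 for bile acid synthesis genes and -0.62 for male-biased genes, and Hsd3b5 lies left of every other point.

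The 3 genes above the median level whose difference came nearest to that of Hsd3b5, over these 2 arrays, were Serpina4-ps1 at -5.20, the antisense RNA Hnf4aos at -3.56 and the lipid droplet protein Cidea at -3.12. Among genes above the median level, Hsd3b5 thus stood between Serpina4-ps1 and Hnf4aos, with a gap of 0.34 to the first and 1.31 to the second. Genes below that level were not searched.

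Both arrays had the defining markers of hepatocytes, with 6 of 6 well above background on each. Their summed level was 2099 in the wild type and 1485 in the knockout, and single markers ran from -0.63 for Ttr to 1.04 for Tat. Kidney markers, relevant to Hsd3b4, were nearly absent: 4 of 5 were not well above background on either array, and Slc34a1 read 0.087 and 0.058. Of 6 adrenal and gonadal markers 5 had a probe, and 3 were well above background in the wild type and 2 in the knockout. Cyp17a1 and Cyp21a1 made up nearly all of that signal, and which cells gave it was not tested. Star was well above background in the wild type alone, and Cyp11a1 and Cyp11b1 on neither array.

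Of 5 skeletal muscle markers, 5 passed the background mark in the wild type, with a summed level of 6.33, and 0 in the knockout. In the knockout they were lower by at least 88.1-fold for Tnnc2, 36.5-fold for Tcap and 28.6-fold for Acta1. The bounds were 11.8-fold for Myh4 and 6.71-fold for Ckm. Each bound uses the lowest knockout level that passed the background mark or the probe's own level, whichever is higher. Macrophage markers had summed levels of 26.7 and 38.3, with 2 of 4 higher at 1.5-fold in the knockout. Stellate cell markers summed to 0.817 and 1.68, with 3 of 4 higher. Over all measured genes 8.42% were higher by as much at this scaling, and 59.1% with spike-in scaling. The marker counts were made at this scaling only. Bile duct markers summed to 0.186 and 0.329, and Epcam was not well above background on either array. These levels differed between the same 2 arrays as Hsd3b5, and their part in the Hsd3b differences was not tested.

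**Figure D5:**
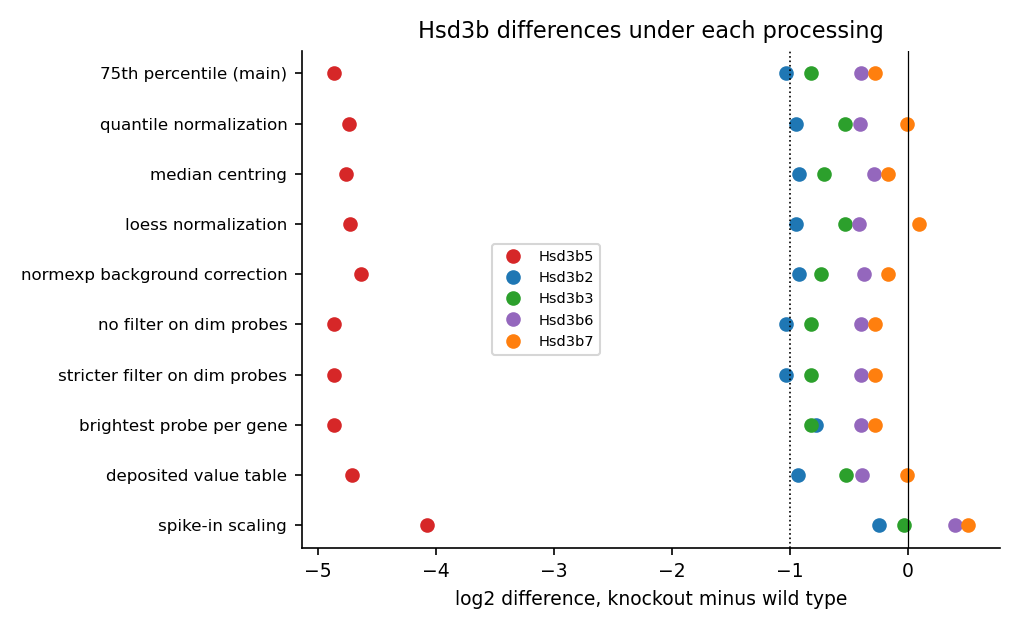
Log2 difference (knockout minus wild type) of each measured Hsd3b member under the main processing and 9 alternatives; the dotted line marks 2-fold lower and the solid line 0. Hsd3b5 stays between -4.87 and -4.08, and Hsd3b2 crosses the 2-fold line. Hsd3b6 and Hsd3b7 reach the other side of 0 with spike-in scaling, and Hsd3b7 also under loess, at 0.10.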

How the data were processed

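Total liver RNA was labelled with Cy3 and hybridised to Agilent mouse arrays, per the labels' protocols, and both samples lay on 1 slide. Spot intensities were made by Agilent Feature Extraction and deposited by the authors: background-subtracted and spatially detrended per the file headers, with substitutes near background. Feature Extraction 9.5.1.1 is given by the submitters' processing notes, while the file headers carry 10.7.1.1. The deposited value table holds linear intensities whose sorted values agree in both columns at all but 221 ranks, as after quantile normalization; how it was made is not given in the sources used here.

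Control spots (1377) and spots marked as outliers (183 and 190) were left out, and 0 were saturated. Signals were divided by the array's 75th percentile, log2-transformed and averaged over spots of a probe. To count as measured, a probe needed the scanner software's well-above-background mark on 50% or more of its spots kept, and a gene is the mean over probes measured on both arrays (19470 probes). Of the 39429 probes, 26761 were named by accession and 4453 by symbol from RefSeq (GRCm38.p6), and 8215 kept the file's name; members were taken by the file's name. The number of arrays, 1 per group, limits the precision.

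The members and the gene lists were chosen with earlier results of these data known. Named genes are all members, Dnm1l, Fgf21, up to 4 measured genes of each list with the greatest difference, and the 3 genes nearest to Hsd3b5. An item under this rule is not reported here. Further list and marker genes were named after their values were seen. The 8 alternatives (quantile, median centring, loess with span 0.3, normexp with offset 50, no filter, a stricter filter at the 25th percentile, brightest probe, deposited table) were listed first, and scaling to 217 spike-in spots was chosen after seeing the data. The script that computes and counts differences was checked on simulated arrays with known changes. Tools were Python 3.11.15, pandas 2.3.3, Biopython 1.88 (alignment with free end gaps), R 4.3.3 and limma 3.58.1.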

Additional observations from a re-analysis of the deposited data

How the results depend on the processing

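Alternatives were compared with the spot error of a difference, an SD of 0.14, as no replicate spread exists. The Hsd3b5 difference moved by less than that under 5 of the 8 alternatives listed first. Of these, no filter, the stricter filter and the brightest probe could not change it, since its only probe passed each. The others were quantile normalization, at -4.73, and median centring, at -4.76. The difference was -4.72 under loess, -4.63 with normexp and -4.71 in the deposited value table. It was -4.08 with spike-in scaling, which moved the median of all genes by 0.79. The count of members at least 2-fold lower was 1 in place of 2 under quantile normalization, median centring, loess, normexp, the brightest probe per gene, the deposited table and spike-in scaling, where Hsd3b2 no longer passed. No member was 2-fold higher under any setting run. The median of all genes moved by 0.11 under median centring and loess and by -0.20 without the filter. At 2-fold, all measured genes gave 211 higher and 301 lower with normexp, 210 and 300 with the stricter filter, 1574 and 1766 with no filter and 3605 and 104 with spike-in scaling. No paired analysis was possible because each group holds 1 sample. Hsd3b1 and Hsd3b4 were too dim for any difference.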
